A study of Mus musculus with 8 samples.

Results

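The thoracic spinal cord of mice lacking the miR-34/449 microRNA family was compared with that of wild-type mice by RNA sequencing at postnatal day 14. The comparison used the 4 thoracic libraries of the 8 in the series, chosen by their labels: 2 from mice homozygous for deletions of Mir34a, Mir34bc and Mir449 (TKO) and 2 from C57BL/6J mice (WT). RNA came from whole dissected cord segments, and the stranded libraries were made from polyadenylated RNA. No other allele or treatment was labelled in any group. The genetic background of the TKO mice, the number of mice behind a library and whether replicates were separate mice are not given in the labels, so the spread behind each p-value is that between libraries and may be technical. The other 4 libraries, TKO and WT lumbar cord at the same age with 2 each, helped to estimate that spread and served as the second segment. The series was described as part of research on spinal muscular atrophy, in which motor neurons degenerate for want of SMN protein.

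MicroRNAs guide silencing proteins to messenger RNAs whose 3′ untranslated regions pair with the seed, bases 2 to 8 of the microRNA, and the paired messenger is degraded or translated less. Within the miR-34/449 family the miR-34 genes are known as targets of p53. The family is known to restrain the cell cycle. It also regulates the multiciliated cells that line the airways and the ventricles and central canal of the nervous system. The deletions removed the genes of the following mature microRNAs. Their sequences are shown because they share 1 seed, in capitals, so that deleting any single gene would leave others able to pair with the same sites.
mmu-miR-34a-5p: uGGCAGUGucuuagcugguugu
mmu-miR-34b-5p: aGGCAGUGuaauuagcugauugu
mmu-miR-449a-5p: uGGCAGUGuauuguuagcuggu
mmu-miR-449c-5p: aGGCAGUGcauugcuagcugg
These are RefSeq sequences on GRCm38.p6, at chr4:150068473-150068494 (plus strand), chr9:51103610-51103632 (minus), chr13:113037549-113037570 (plus) and chr13:113036008-113036028 (plus). The family also holds mmu-miR-34c-5p and mmu-miR-449b.

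Gene reads numbered 18952400 and 17438480 in the TKO libraries and 20907819 and 18601575 in the WT libraries, over 41325 annotated genes. Transcripts of the mitochondrial genome made up 11.9% and 6.53% of reads in TKO and 16.8% and 9.45% in WT, and intron reads 4.40% and 6.69% in TKO and 4.87% and 5.22% in WT. Genes of the Hox paralog groups 10 to 13, which mark lumbar and sacral cord, summed to 15.6 and 11.1 CPM (reads scaled to a common depth) in TKO and 25.1 and 8.19 CPM in WT. In the lumbar libraries the same genes summed to 127 to 149 CPM, 5 or more times those of any thoracic library. WT replicate 1 held the most of these caudal transcripts among the thoracic libraries.

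The libraries differed in base composition along with genotype, and this touched every gene group below. When genes were sorted into 4 equal groups by the GC content of their transcript, the median log2 fold change of TKO over WT was −0.371 in the group with the lowest GC, then −0.144, 0.14 and 0.513 in the group with the highest. The matching lumbar values ran only from −0.095 to 0.072. In the group with the highest GC the median deviation from the mean of the 4 thoracic libraries was 0.107 and 0.383 in TKO replicates 1 and 2 and −0.453 and −0.025 in WT replicates 1 and 2. TKO replicate 2 and WT replicate 1 therefore carried most of the trend, in opposite directions, and these are also the thoracic libraries with the lowest and the highest mitochondrial share. A second fit was made after this was seen, in which the trend with transcript GC was removed from each library. It lowered the common dispersion, the squared biological variation between libraries of a group, to 0.0165, against 0.0332 without it. Values of this GC-corrected fit are given beside the uncorrected ones for each gene list and for the genes either fit called.

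**Figure D1:**
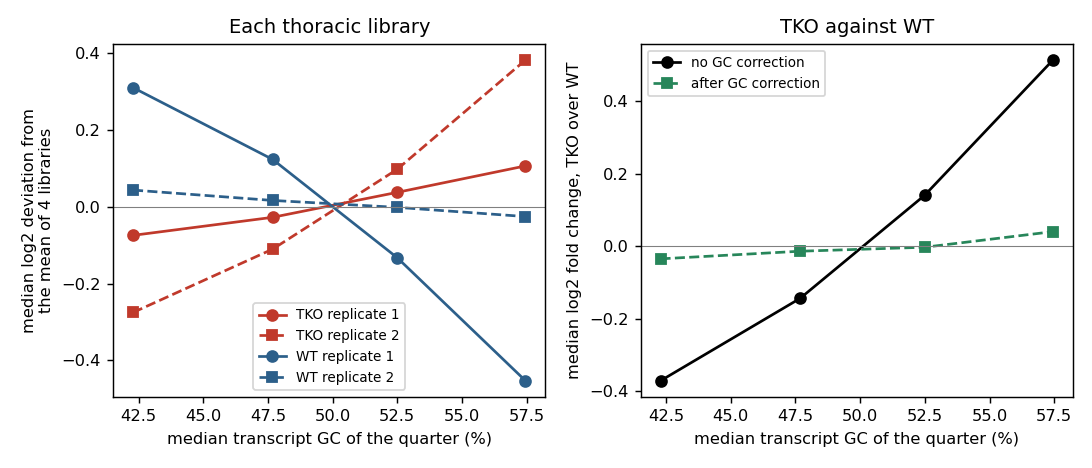
Left, median log2 deviation of each thoracic library from the mean of the 4, against the median transcript GC of each of 4 equal groups of genes; TKO libraries in red and WT libraries in blue, replicate 1 solid and replicate 2 dashed. Right, median log2 fold change of TKO over WT per group, from −0.371 to 0.513 without GC correction (black) and from −0.035 to 0.04 after it (green).

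In the thoracic cord 4 genes rose and 2 fell in TKO at an adjusted p under 0.05 (quasi-likelihood test of edgeR, Benjamini-Hochberg adjustment). These 6 were 0.0352% of the 17067 genes tested, with 0.0234% higher and 0.0117% lower. The genes that rose were Masp2, Samd11, Zfp981 and Padi2, and those that fell were Zfp982 and Igf1. At an unadjusted p under 0.05, 1991 genes were higher (11.7%) and 1405 lower (8.23%), 19.9% of all genes tested, where 853 in all would be expected with no effect. The median log2 fold change over all genes was −0.01 and its median SE 0.239. The GC-corrected fit called 96 genes (0.562%), 57 higher (0.334%) and 39 lower (0.229%), and these included all 6. Of the 96, 92 had no overlap between the TKO and WT values in CPM. Over all genes tested, 26.8% were higher and 27.4% lower with no overlap. The 96 were chosen by p-value from these same libraries, so the lack of overlap is no separate support. No gene was called when any single thoracic library was left out, except Zfp982 without WT replicate 2.

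Masp2, a serine protease that starts complement activation by lectins (chromosome 4, 148602554 to 148615499), had 4.99 and 5.38 CPM in TKO against 0.255 and 0.412 CPM in WT. Its log2 fold change was 3.93 (SE 0.329, adjusted p = 0.00641 with edgeR), and 4.04 after GC correction (adjusted p = 0.000735 with edgeR). Samd11, a nuclear protein of the retina and other tissues (chromosome 4, 156246966 to 156255657), had 4.94 and 8.52 CPM in TKO against 0.715 and 0.721 CPM in WT. Samd11 rose, and its log2 fold change was 3.22 (SE 0.372, adjusted p = 0.0394 with edgeR), and 2.68 after GC correction (adjusted p = 0.00637 with edgeR). Padi2, which converts arginine to citrulline in myelin basic protein (chromosome 4, 140906344 to 140952586), had 283.5 and 275.6 CPM in TKO against 110 and 128 CPM in WT, which is 1.23 on the log2 scale (SE 0.148, adjusted p = 0.0439 with edgeR) and 0.97 after GC correction (adjusted p = 0.0119 with edgeR). For these 3 genes each TKO value was above each WT value.

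Zfp982, of a family of zinc finger proteins that repress transposable elements (chromosome 4, 147492417 to 147513486), was nearly absent from TKO. It had 0 and 1 read in the TKO libraries against 123 and 101 reads in the WT libraries, a WT over TKO ratio of 206 (exact 95% counting interval 36.6 to 8170), and its adjusted p was 0.00641, and 0.000735 after GC correction, with edgeR. Zfp981, another member (chromosome 4, 146502027 to 146539395), had 348 and 422 reads in TKO against 126 and 118 in WT (log2 1.78, SE 0.207, adjusted p = 0.0394, and 0.017 after GC correction, with edgeR). Nearly all of them, 345 and 417 in TKO and 123 and 112 in WT, were counted in introns. In the authors' RPKM, which count exon reads and scale them by exon length and depth, Zfp981 stood at 0.0488 and 0.088 in TKO and 0.044 and 0.0992 in WT, so the groups overlapped in exon reads. Only 68.6% of its reads were uniquely placed, so its value is uncertain.

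**Figure D2:**
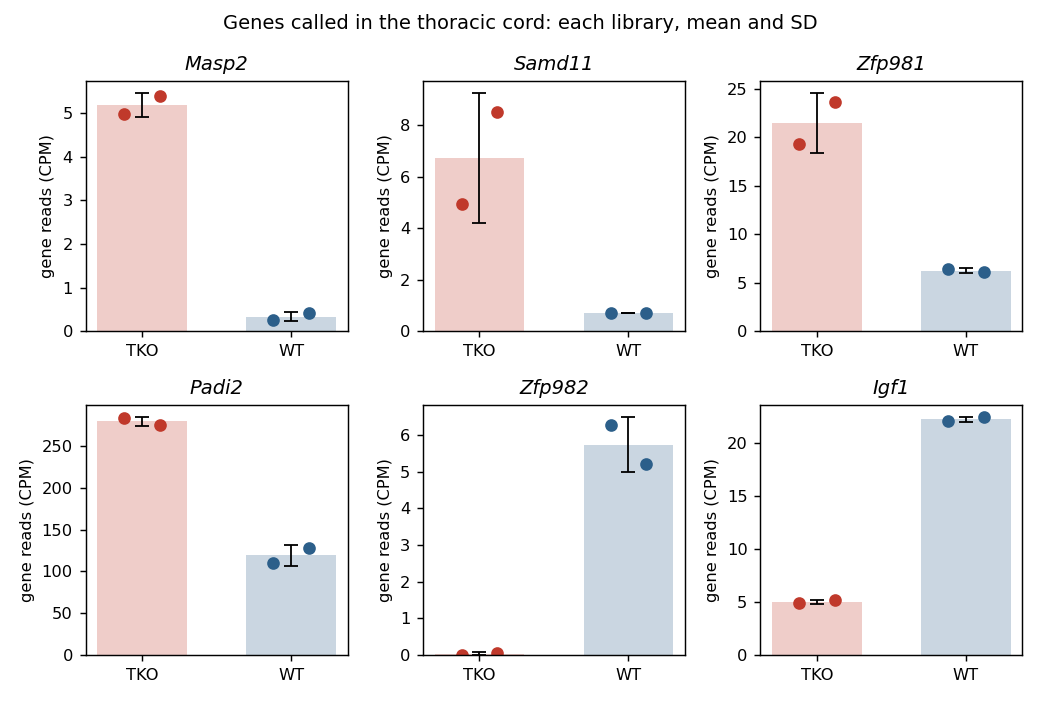
Gene reads in CPM of the 6 genes called in the thoracic cord, with TKO (red) left of WT (blue); points are single libraries, bars are means and error bars SD of 2 libraries. Igf1 averaged 5.02 CPM in TKO and 22.2 CPM in WT, and no TKO value overlaps a WT value in any panel.

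Of the 6 called genes, 5 lie within 10 Mb of Mir34a on chromosome 4 (150068454 to 150068555), and Igf1 on chromosome 10 is the exception. In that window 4 genes were called higher and 1 lower of 212 tested (2.36%), against 1 of 16545 (0.00604%) away from all 3 deleted loci. At an unadjusted p under 0.05 the window held 59 higher and 13 lower genes (34.0%, against 19.8% elsewhere). Its median log2 fold change was 0.357 without and 0.077 with GC correction. None of 234 genes near Mir34b and Mir34c and none of 76 near Mir449 was called. GC correction gave 7 higher and 5 lower genes near Mir34a (5.66%), 2 higher near Mir34b and Mir34c (0.855%), 1 lower near Mir449 (1.32%) and 48 higher and 33 lower elsewhere (0.49%). Neighbouring genes on a chromosome are not independent, and strain differences carried along with a deletion cannot be told apart from the deletion itself in this design.

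Other zinc finger genes of the same cluster stood at opposite ends of the range. Zfp990 had 68 and 28 reads in TKO and 1 read in each WT library, a ratio of 52.2 (exact 95% counting interval 14.1 to 437), and passed only after GC correction (edgeR, adjusted p = 0.0314, against 0.187 without). Zfp979 had 0.666 and 0.0561 CPM in TKO against 6.89 and 3.25 CPM in WT (adjusted p = 0.17, and 0.0424 after GC correction, with edgeR). Zfp984 had 2.33 and 1.46 CPM in TKO against 11.5 and 7.06 CPM in WT (adjusted p = 0.133, and 0.0202 after GC correction, with edgeR). Uniquely placed reads made up 83.7%, 76.8% and 51.0% of the reads of these 3 genes, so they too are uncertain. Tnfrsf8, the lymphocyte receptor CD30, had 0 and 1 read in TKO against 22 and 36 in WT (adjusted p = 0.0924, and 0.0119 after GC correction, with edgeR). Slc26a7, an anion exchanger elsewhere on chromosome 4, had 0.721 and 0.785 CPM in TKO against 4.08 and 3.45 CPM in WT (adjusted p = 0.108, and 0.035 after GC correction, with edgeR). Rsg1, a small GTPase needed to build cilia, was chosen after its values were seen, with 1.78 and 1.63 CPM in TKO against 5.10 and 5.51 CPM in WT (adjusted p = 0.174, and 0.0478 after GC correction, with edgeR).

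**Figure D3:**
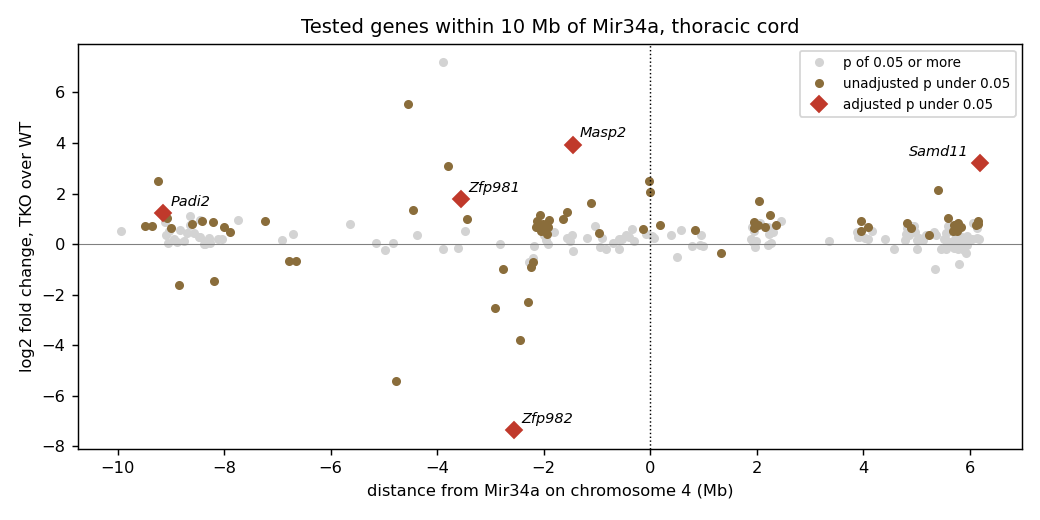
Log2 fold change of TKO over WT for the 212 tested genes within 10 Mb of Mir34a, against distance from Mir34a in Mb; red diamonds are genes at an adjusted p under 0.05, brown points at an unadjusted p under 0.05, grey points the rest. Called genes lie on both sides of the deleted locus, with Zfp982 at −7.37 and Masp2 at 3.93.

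At the deleted loci themselves, 0 reads were counted for all 6 microRNA precursors in the TKO and the WT libraries alike. Selection of polyadenylated RNA leaves such short precursors out, so this does not check the labels. Cdc20b, the gene whose intron holds Mir449 (chromosome 13, 113035111 to 113091195), had 8 and 18 reads in TKO and 0 and 1 in WT, a ratio of 28.3 (exact 95% counting interval 4.65 to 1160, adjusted p = 0.195 with edgeR). Gpx8, a peroxidase of the endoplasmic reticulum that lies inside Cdc20b, so that reads of the pair may be mixed (chromosome 13, 113042753 to 113046410), had 7.21 and 4.99 CPM in TKO against 18.6 and 13.4 CPM in WT (log2 −1.39, SE 0.26, adjusted p = 0.145, and 0.0292 after GC correction, with edgeR). Gm37795, a transcript model that overlaps the end of Mir34a (chromosome 4, 150068539 to 150070997), had 558 and 726 reads in TKO against 183 and 149 in WT (log2 2.07, SE 0.265, adjusted p = 0.0605, and 0.00637 after GC correction, with edgeR). The model carried no exon length in the authors' counts, so all of its reads fell under intron reads whatever their origin. Ccno, a cyclin of multiciliated cells next to Mir449, had 0.666 and 0.561 CPM in TKO and 0.357 and 0.155 CPM in WT, all near the limit of detection.

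Igf1, the insulin-like growth factor that supports neurons and the maturation of oligodendrocytes (chromosome 10, 87858265 to 87937042), fell in TKO. It had 4.88 and 5.16 CPM in TKO against 22.1 and 22.4 CPM in WT. The log2 fold change was −2.15 (SE 0.208, adjusted p = 0.0149 with edgeR), a 4.42-fold difference, and −1.68 after GC correction (adjusted p = 0.00637 with edgeR). Leaving out each of the 8 libraries in turn gave log2 values of −2.18 to −2.09. The call itself was lost without any single thoracic library and without either lumbar WT library. The calls of Samd11, Zfp981 and Padi2 were also lost without either lumbar WT library. Across the insulin-like growth factor ligands, receptors and binding proteins, 15 were tested and 1, Igf1, was called. The median log2 fold change was −0.109, with 0 higher and 3 lower at an unadjusted p under 0.05, and −0.279 with 0 higher and 6 lower after GC correction. Over all genes the shares were 11.7% higher and 8.23% lower, and 8.14% and 7.76% after GC correction. Igf2, the fetal ligand, had 34.4 and 61.5 CPM in TKO against 110.7 and 172.5 CPM in WT (log2 −1.56, adjusted p = 0.195, and 0.0329 after GC correction, with edgeR), but only 1.16% of its reads were uniquely placed, so its value is uncertain. H19, the noncoding RNA expressed from the same imprinted domain, had 10.3 and 7.23 CPM in TKO against 43.3 and 39.0 CPM in WT (adjusted p = 0.197 with edgeR). Igfbp5, a secreted binding protein, had 56.1 and 45.3 CPM in TKO and 80.1 and 94.7 CPM in WT (adjusted p = 0.195 with edgeR). The receptor gene Igf1r had 31.0 and 42.7 CPM in TKO and 25.9 and 30.9 CPM in WT, a difference within 2 SE (log2 0.38, SE 0.224).

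Genes of myelinating oligodendrocytes, the glia that wrap axons, had mostly positive log2 values. Of 30 tested, 25 were above and 5 below 0, with a median log2 fold change of 0.525, and 20 were higher and 0 lower at an unadjusted p under 0.05. Over all genes the shares were 11.7% and 8.23%, and counts at this threshold in every other list are to be read beside them. The TKO and WT libraries did not overlap for 21 higher members and 1 lower member, where 26.8% of all genes were higher and 27.4% lower with no overlap. Only Padi2 was called. The list deviated from the mean of the 4 libraries by a median of 0.307 and 0.278 in TKO and −0.257 and −0.301 in WT, so the genotypes did not overlap (pooled SD 0.026). In CPM the list summed to 83970 and 84700 in TKO and 58770 and 56190 in WT. In bulk tissue, fewer cells of a type and less RNA per cell cannot be told apart, here and for every cell type below. After GC correction the median was 0.439 and 4 members passed, Padi2, Klk6, Opalin and Mbp, with none lower. At an unadjusted p under 0.05 the corrected fit had 25 higher and 0 lower members, against 8.14% and 7.76% of all genes. Over 29 alternative fits the median lay between 0.435 and 0.623.

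Klk6, a protease of mature oligodendrocytes, had 76.1 and 62.0 CPM in TKO against 30.1 and 29.1 CPM in WT (log2 1.22, SE 0.168, adjusted p = 0.0851, and 0.0119 after GC correction, with edgeR). Hapln2, a link protein of the node of Ranvier, had 70.9 and 93.3 CPM in TKO against 34.2 and 33.8 CPM in WT (adjusted p = 0.12, and 0.0591 after GC correction, with edgeR). Gjb1, the gap junction protein connexin 32, had 138 and 124 CPM in TKO against 65.2 and 73.0 CPM in WT (adjusted p = 0.12, and 0.18 after GC correction, with edgeR). No TKO value of these 3 genes overlapped a WT value. Opalin and Mbp were chosen after their values were seen. Opalin, a membrane protein at the edge of the myelin segment, had 128 and 144 CPM in TKO against 73.5 and 70.0 CPM in WT (adjusted p = 0.126, and 0.0123 after GC correction, with edgeR). Mbp, myelin basic protein and the most abundant of these transcripts, had 36890 and 43220 CPM in TKO against 17860 and 22610 CPM in WT (log2 0.99, adjusted p = 0.194, and 0.0483 after GC correction, with edgeR).

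Car14 and Gpd1 were outside the list and among the genes with the smallest p-values. Car14, a membrane carbonic anhydrase, had 42.8 and 46.3 CPM in TKO against 21.2 and 20.2 CPM in WT (adjusted p = 0.0928, and 0.00783 after GC correction, with edgeR). Gpd1, the cytosolic glycerol-3-phosphate dehydrogenase, had 209 and 236 CPM in TKO against 72.6 and 94.1 CPM in WT (adjusted p = 0.0956, and 0.00678 after GC correction, with edgeR). Cryab, the small heat shock protein alpha B-crystallin, chosen after its values were seen, had 199 and 206 CPM in TKO against 75.9 and 104 CPM in WT (adjusted p = 0.133, and 0.0119 after GC correction, with edgeR). Precursors of oligodendrocytes had a list of their own, with a median of 0.061 over 20 genes and −0.002 after GC correction, with 4 higher and 0 lower at an unadjusted p under 0.05. Olig1, a transcription factor of the lineage, had 285 and 299 CPM in TKO and 169 and 187 CPM in WT, a log2 value of 0.71 that was 0.03 after GC correction. Olig2, its partner, had 92.7 and 91.1 CPM in TKO and 71.4 and 68.6 CPM in WT, a log2 value of 0.39 that turned to −0.21. Neu4, a sialidase, had 59.9 and 49.6 CPM in TKO and 28.8 and 37.3 CPM in WT and kept its value (log2 0.73, and 0.74 after correction). Transcripts of the enzymes of cholesterol synthesis, which myelination draws on, had a median of 0.021 over 24 genes, and 0.073 after GC correction, with 5 higher and 0 lower at an unadjusted p under 0.05.

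Astrocytes, the glia that take up glutamate and ions, were followed with 28 genes. Of the 28 tested, 24 were above and 4 below 0, with a median of 0.489, and 18 were higher and 0 lower at an unadjusted p under 0.05. The shares over all genes were 11.7% and 8.23%. The library deviations were 0.244 and 0.245 in TKO and −0.23 and −0.24 in WT. No member was called. After GC correction the median was 0.373 and 4 members passed as higher, Fam107a, Itih3, Dao and Aldoc, against 0.334% of all genes. Fam107a, an actin-associated protein, had 99.5 and 128 CPM in TKO against 46.5 and 33.9 CPM in WT (log2 1.5, SE 0.24, adjusted p = 0.12, and 0.0314 after GC correction, with edgeR). Itih3, a carrier of hyaluronan, had 113 and 101 CPM in TKO against 55.4 and 56.1 CPM in WT (adjusted p = 0.12, and 0.017 after GC correction, with edgeR). Dao, the oxidase that degrades D-serine, had 6.43 and 8.13 CPM in TKO against 1.58 and 2.01 CPM in WT (adjusted p = 0.118, and 0.016 after GC correction, with edgeR). Aldoc, a glycolytic enzyme of astrocytes, had 1561 and 1487 CPM in TKO against 741 and 918 CPM in WT (adjusted p = 0.174, and 0.0314 after GC correction, with edgeR). In each of these 4 genes the lower TKO library was above the higher WT library. Gfap, the intermediate filament of astrocytes, had 2618 and 2652 CPM in TKO and 1850 and 1920 CPM in WT, a log2 value of 0.48 that was 0.11 after GC correction. Genes of reactive astrocytes had a median of 0.015 over 19, with 4 higher and 2 lower at an unadjusted p under 0.05. That median was 0.195 after GC correction and −0.204 without TKO replicate 2 and WT replicate 1.

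Genes induced by glucocorticoids, together with the metallothioneins that bind zinc and copper, had a median of 0.438 over 20 genes, with 8 higher and 0 lower at an unadjusted p under 0.05. Their library deviations were 0.092 and 0.425 in TKO and −0.125 and −0.279 in WT, with TKO replicate 2 the highest. The median was 0.169 without TKO replicate 2 and 0.339 without WT replicate 2. Mt1 had 124 and 246 CPM in TKO against 44.7 and 56.6 CPM in WT (log2 1.87, SE 0.447, adjusted p = 0.194, and 1.69, adjusted p = 0.221 after GC correction, with edgeR). Mt3, the brain form, had 151 and 153 CPM in TKO against 40.9 and 75.9 CPM in WT (log2 1.38, adjusted p = 0.197, and 0.78, adjusted p = 0.0865 after GC correction, with edgeR). The clock gene Per1 had 27.1 and 47.6 CPM in TKO against 11.4 and 15.7 CPM in WT (log2 1.46, adjusted p = 0.192, and 0.82, adjusted p = 0.0551 after GC correction, with edgeR). Sgk1, a kinase that glucocorticoids induce in oligodendrocytes, had 85.7 and 97.6 CPM in TKO against 55.6 and 54.3 CPM in WT (adjusted p = 0.178 with edgeR). It was the member that passed after GC correction (edgeR, adjusted p = 0.0264), where the median of the list was 0.279.

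Microglial genes, markers of the resident macrophages of the cord, had a median of 0.491 over 24. Of these, 12 were higher and 0 lower at an unadjusted p under 0.05, against 11.7% and 8.23% of all genes. The deviations were 0.273 and 0.341 in TKO and −0.279 and −0.265 in WT. After GC correction the median was 0.441 and Csf1r, Ctss, C1qa and C1qc passed as higher, against 0.334% of all genes. Csf1r, the receptor on which microglia depend, had 120 and 123 CPM in TKO against 52.1 and 69.4 CPM in WT (log2 1.00, SE 0.179, adjusted p = 0.133, and 0.0298 after GC correction, with edgeR). Ctss, a lysosomal protease, had 71.8 and 86.9 CPM in TKO against 46.8 and 39.5 CPM in WT (adjusted p = 0.17, and 0.0197 after GC correction, with edgeR). Tyrobp, a signalling adaptor, had 20.6 and 22.1 CPM in TKO against 9.85 and 12.1 CPM in WT (adjusted p = 0.174, and 0.0674 after GC correction, with edgeR). C1qa and C1qc, chains of the complement protein C1q, were chosen after their values were seen. C1qa had 31.3 and 51.6 CPM in TKO against 11.7 and 17.9 CPM in WT (adjusted p = 0.194, and 0.0379 after GC correction, with edgeR). C1qc had 37.1 and 54.9 CPM in TKO against 15.3 and 21.6 CPM in WT (adjusted p = 0.192, and 0.035 after GC correction, with edgeR).

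In the complement list Masp2 was the called member, and values went both ways, with 6 members higher and 3 lower of 18 at an unadjusted p under 0.05. The median of the list was 0.306, and 0.478 after GC correction, but 0.038 without TKO replicate 2 and WT replicate 1. After GC correction C1qa and C1qc passed beside Masp2, and all 3 lie on chromosome 4, as Mir34a does. Of them only Masp2 is within 10 Mb of it. C3, the central component, had 11.2 and 14.7 CPM in TKO against 5.21 and 5.51 CPM in WT (adjusted p = 0.174, and 0.0622 after GC correction, with edgeR). Cd55, decay-accelerating factor, which protects host cells from complement, had 7.10 and 5.33 CPM in TKO against 14.6 and 11.8 CPM in WT (log2 −1.09, adjusted p = 0.192, and 0.0701 after GC correction, with edgeR).

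**Figure D4:**
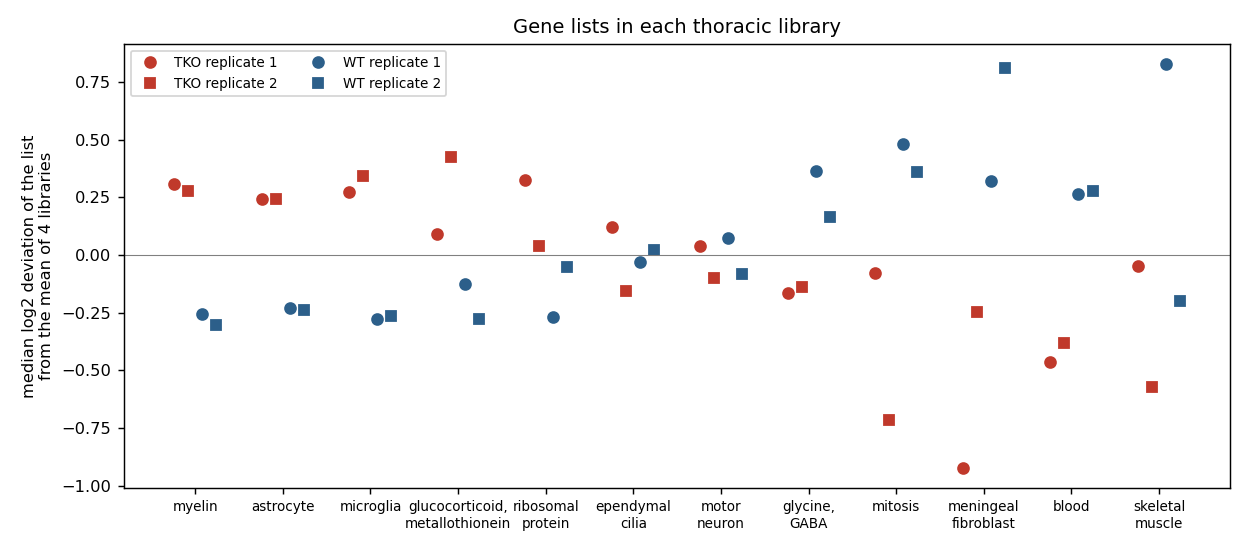
Median log2 deviation of each gene list from the mean of the 4 thoracic libraries, for each library, with TKO (red) left of WT (blue), circles for replicate 1 and squares for replicate 2. Myelin, astrocyte and microglial lists do not overlap between genotypes. The same holds for the glucocorticoid, ribosomal protein, glycine and GABA, mitosis, meningeal fibroblast and blood lists. The skeletal muscle list is high in WT replicate 1 alone, at 0.828. Values are without GC correction.

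Genes of meningeal fibroblasts, which form the membranes around the cord, had mostly negative log2 values. Of 24 tested, 22 were below and 2 above 0, the median was −1.466, and 1 was higher and 16 lower at an unadjusted p under 0.05. The list summed to 377 and 481 CPM in TKO and 693 and 915 CPM in WT. Its deviations of −0.921 and −0.245 in TKO and 0.321 and 0.812 in WT show a wide spread within each genotype as well (pooled SD 0.418). After GC correction the median was −1.611 and 5 members passed as lower, Col1a1, Col1a2, Foxc1, Igf2 and Lum. How much of the meninges stayed on each dissected cord is not recorded, and its part in these values was not tested.

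Lum, the collagen-binding proteoglycan lumican, had 3.38 and 2.92 CPM in TKO against 8.58 and 8.65 CPM in WT (log2 −1.45, SE 0.233, adjusted p = 0.12, and 0.0354 after GC correction, with edgeR). Foxc1, a transcription factor required for meningeal development, had 2.16 and 2.69 CPM in TKO against 6.07 and 5.25 CPM in WT (adjusted p = 0.17, and 0.0298 after GC correction, with edgeR). Dcn, the proteoglycan decorin, had 12.04 and 15.31 CPM in TKO against 36.2 and 40.2 CPM in WT (log2 −1.48, adjusted p = 0.17, and 0.467 after GC correction, with edgeR). Col1a1 and Col1a2, the chains of type I collagen, were chosen after their values were seen. Col1a1 had 18.1 and 24.2 CPM in TKO against 40.7 and 68.9 CPM in WT (adjusted p = 0.205, and 0.0119 after GC correction, with edgeR). Col1a2 had 48.5 and 60.7 CPM in TKO against 98.0 and 135 CPM in WT (adjusted p = 0.197, and 0.00495 after GC correction, with edgeR). Across 39 collagen genes 8 were higher and 8 lower at an unadjusted p under 0.05, with a median of −0.138. After GC correction 4 were higher and 15 lower, against 8.14% and 7.76% of all genes, with a median of −0.29. Col14a1, a collagen of fibril surfaces, had 4.22 and 2.52 CPM in TKO against 9.34 and 11.6 CPM in WT (adjusted p = 0.133, and 0.0292 after GC correction, with edgeR). Col20a1 had the opposite sign, with 16.4 and 21.6 CPM in TKO against 6.69 and 8.395 CPM in WT (log2 1.33, adjusted p = 0.121, and 0.0298 after GC correction, with edgeR).

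Dpp4 and Tfpi were also among the genes with the smallest p-values. Dpp4, the peptidase CD26, had 2.995 and 3.028 CPM in TKO against 9.75 and 10.4 CPM in WT (adjusted p = 0.12, and 0.0556 after GC correction, with edgeR). Tfpi, an inhibitor of the tissue factor pathway of coagulation, had 5.88 and 5.38 CPM in TKO against 13.4 and 14.01 CPM in WT (adjusted p = 0.121, and 0.0651 after GC correction, with edgeR). Endothelial genes had a median of 0.073 over 19, and 0.042 after GC correction. Of these, 5 were higher and 0 lower at an unadjusted p under 0.05, against 11.7% and 8.23% of all genes. Ly6c1, an antigen of vessel walls, passed after GC correction, with 35.3 and 29.8 CPM in TKO against 20.9 and 18.9 CPM in WT (edgeR, adjusted p = 0.0478, against 0.195 without; 66.3% of its reads uniquely placed). Slc2a1, the glucose transporter of the blood-brain barrier, had 93.9 and 110 CPM in TKO and 47.1 and 59.6 CPM in WT (adjusted p = 0.197, and 0.0832 after GC correction, with edgeR).

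Blood and muscle, tissues that can adhere to a dissected cord, were followed with their own lists. Blood genes had a median of −0.68 over 18, and −0.854 after GC correction, with 0 higher and 8 lower at an unadjusted p under 0.05, and deviations of −0.464 and −0.382 in TKO and 0.263 and 0.279 in WT. Hba-a2, an alpha globin, had 24.96 and 16.6 CPM in TKO against 72.8 and 79.5 CPM in WT, with 5.89% of its reads uniquely placed. Alas2, the heme enzyme of red cells, had 1.66 and 0.617 CPM in TKO against 5.16 and 6.64 CPM in WT. Skeletal muscle genes had a median of −1.028 over 25, and −1.365 after GC correction, with 3 higher and 11 lower at an unadjusted p under 0.05. Their median was −0.058 when WT replicate 1 alone was left out. Myl1, a fast myosin light chain, had 2.44 and 0.561 CPM in TKO and 28.8 and 2.52 CPM in WT. Without TKO replicate 2 and WT replicate 1 together the muscle median was 0.206. Pygm, muscle glycogen phosphorylase that astrocytes also express, was among the 8 members above 0, with 177 and 180 CPM in TKO against 77.3 and 89.8 CPM in WT (log2 1.09, adjusted p = 0.12, and 0.0292 after GC correction, with edgeR).

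Most transcripts of dividing cells had negative log2 values. Of 32 mitosis genes 30 were below and 2 above 0, the median was −0.87, and 0 were higher and 21 lower at an unadjusted p under 0.05. Their deviations were −0.077 and −0.715 in TKO and 0.482 and 0.362 in WT, so TKO replicate 2 was the lowest. After GC correction the median was −0.691, and without TKO replicate 2 and WT replicate 1 it was −0.485. Mki67, the proliferation antigen Ki-67, had 15.1 and 9.93 CPM in TKO against 35.0 and 26.0 CPM in WT (log2 −1.28, SE 0.275, adjusted p = 0.19, and 0.0379 after GC correction, with edgeR). Kif11, the motor that separates spindle poles, had 6.32 and 3.98 CPM in TKO against 13.6 and 10.4 CPM in WT (adjusted p = 0.197, and 0.0871 after GC correction, with edgeR). Kif23, a kinesin of cell division, had 2.61 and 1.79 CPM in TKO against 5.51 and 4.12 CPM in WT, and Hmmr, a spindle protein, had 2.27 and 1.40 CPM in TKO against 5.21 and 4.12 CPM in WT. Genes of DNA replication had a median of −0.318 over 32, and −0.301 after GC correction, with 0 higher and 4 lower at an unadjusted p under 0.05. Rrm2, a subunit of ribonucleotide reductase, had 7.04 and 4.49 CPM in TKO against 11.6 and 9.73 CPM in WT. Mcm6, of the replicative helicase, had 14.4 and 9.14 CPM in TKO against 19.6 and 21.1 CPM in WT.

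Neuronal genes were grouped by transmitter, receptor and position. Genes of inhibitory transmission by glycine and GABA had a median of −0.481 over 31, with 1 higher and 13 lower at an unadjusted p under 0.05, and −0.262 after GC correction. Their transcripts are poor in GC, at a median of 45.0%. Gad2, which makes GABA at terminals, had 74.1 and 71.8 CPM in TKO against 123 and 116 CPM in WT (log2 −0.72, SE 0.141, adjusted p = 0.17, and 0.123 after GC correction, with edgeR). Gabra5, a GABA receptor subunit, had 39.1 and 36.5 CPM in TKO against 75.7 and 61.8 CPM in WT (adjusted p = 0.192, and 0.039 after GC correction, with edgeR). Gabbr2, a metabotropic GABA receptor subunit chosen after its values were seen, had 97.2 and 103 CPM in TKO against 119 and 139 CPM in WT (log2 −0.36, adjusted p = 0.24, and −0.77, adjusted p = 0.0264 after GC correction, with edgeR). Slc6a9, the glycine transporter of astrocytes, had the opposite sign, with 288 and 295 CPM in TKO against 123 and 180 CPM in WT (log2 0.94, adjusted p = 0.194 with edgeR).

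Glutamate receptor genes had a median of −0.323 over 30, and −0.186 after GC correction, with 3 higher and 11 lower at an unadjusted p under 0.05. Gria2, the AMPA receptor subunit that limits calcium entry, had 148 and 186 CPM in TKO against 293 and 266 CPM in WT, a log2 value of −0.75 that was −0.25 after GC correction. Grm8, a presynaptic metabotropic receptor, had 7.43 and 8.41 CPM in TKO against 16.3 and 16.6 CPM in WT (log2 −1.05, adjusted p = 0.157, and 0.142 after GC correction, with edgeR). Grin2c, an NMDA receptor subunit, had 18.9 and 23.0 CPM in TKO against 7.401 and 9.32 CPM in WT (log2 1.32, adjusted p = 0.174, and 0.0956 after GC correction, with edgeR). Peptide genes of the dorsal horn, where sensory input arrives, had a median of −0.312 over 21, and −0.399 after GC correction, with 1 higher and 5 lower at an unadjusted p under 0.05. Their library deviations were −0.468 and 0.11 in TKO and 0.036 and 0.36 in WT, so the genotypes overlapped. Without TKO replicate 2 and WT replicate 1 the median was −0.898. Nts, neurotensin, had 19.1 and 22.3 CPM in TKO against 40.6 and 36.3 CPM in WT, and Adcyap1, the peptide PACAP, had 19.4 and 22.8 CPM in TKO against 32.7 and 36.8 CPM in WT. Crh, corticotropin-releasing hormone, had 0.721 and 0.841 CPM in TKO against 1.89 and 2.73 CPM in WT (adjusted p = 0.194, and 0.0832 after GC correction, with edgeR).

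Among 28 transcription factors that specify spinal interneurons, the median was −0.055, and −0.208 after GC correction, and 1 was higher and 6 lower at an unadjusted p under 0.05. Lbx1 and Mafa, both of the dorsal horn and chosen after their values were seen, passed as lower after GC correction (edgeR, adjusted p = 0.039 for Lbx1 and 0.0446 for Mafa, against 0.249 and 0.248 without). Lbx1 had 3.55 and 6.62 CPM in TKO against 7.30 and 9.12 CPM in WT, and Mafa had 4.55 and 7.96 CPM in TKO against 8.88 and 10.3 CPM in WT. Motor neuron genes had a median of 0.058 over 26, with 3 higher and 5 lower at an unadjusted p under 0.05, and −0.188 after GC correction. Slc18a3, the vesicular transporter of acetylcholine, had 12.4 and 13.2 CPM in TKO and 7.30 and 6.03 CPM in WT, but none of its reads was uniquely placed. Prph, the filament protein peripherin, had 43.6 and 37.2 CPM in TKO and 24.4 and 22.0 CPM in WT, a log2 value of 0.80 that was 0.13 after GC correction. Esrrg, a nuclear receptor of gamma motor neurons, had 36.6 and 25.1 CPM in TKO and 59.0 and 40.3 CPM in WT. Aldh1a2, which makes retinoic acid in motor neurons and meninges, had 1.498 and 4.82 CPM in TKO and 6.94 and 14.9 CPM in WT, and the genotypes did not overlap.

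Smn1, the mouse gene for SMN, had 14.1 and 12.5 CPM in TKO and 15.2 and 12.9 CPM in WT (log2 −0.08, SE 0.185), and the genotypes overlapped. Genes of the SMN complex and of the small nuclear ribonucleoproteins it assembles had a median of −0.202 over 25, and −0.065 after GC correction, with 3 higher and 3 lower at an unadjusted p under 0.05. Lsm11, of the U7 particle that processes histone messengers, had 66.2 and 57.2 CPM in TKO against 89.6 and 96.8 CPM in WT (log2 −0.60, SE 0.152, adjusted p = 0.197, and 0.0446 after GC correction, with edgeR). The Hox genes of paralog groups 8 and 9, which mark the thoracic cord, were all below 0, 7 of 7, with a median of −0.236. The median was −0.468 after GC correction and −0.118 without TKO replicate 2 and WT replicate 1. They summed to 299 and 327 CPM in TKO and 383 and 386 CPM in WT. Hoxb9 had 77.2 and 80.0 CPM in TKO against 102 and 97.0 CPM in WT, and Hoxa9 had 36.4 and 31.7 CPM in TKO against 49.2 and 39.7 CPM in WT. Neither passed, with or without GC correction.

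**Figure D5:**
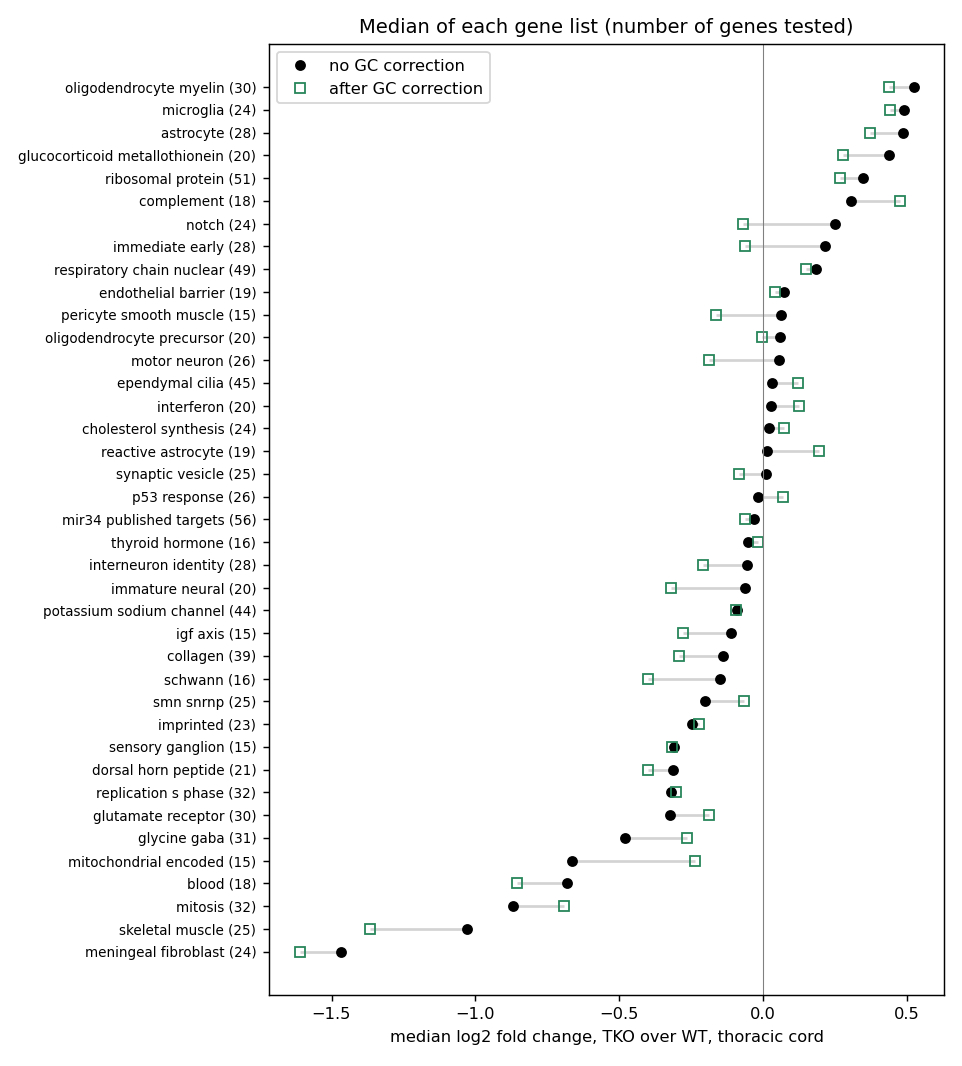
Median log2 fold change of TKO over WT in the thoracic cord for each gene list with 15 or more genes tested (number in brackets), without GC correction (black circles) and after it (green squares). Myelin, astrocyte and microglial lists stayed above 0 and meningeal, muscle, mitosis and blood lists below 0 in both, while the Notch, immediate early, motor neuron and pericyte lists were among those that changed sign.

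Housekeeping lists were examined for effects of library quality. Cytosolic ribosomal protein genes had a median of 0.347 over 51, with 20 higher and 0 lower at an unadjusted p under 0.05, and 0.268 after GC correction. Rps21 had 88.4 and 92.4 CPM in TKO against 45.7 and 61.4 CPM in WT. Nuclear genes of the respiratory chain had a median of 0.186 over 49, and 0.149 after GC correction, with 13 higher and 0 lower at an unadjusted p under 0.05. Their library deviations were 0.29 and −0.118 in TKO and −0.046 and −0.081 in WT. TKO replicate 2 was therefore the lowest, and the genotypes overlapped. Uqcrq, a subunit of complex III, had 61.5 and 65.6 CPM in TKO against 30.7 and 35.1 CPM in WT (adjusted p = 0.197, and 0.0968 after GC correction, with edgeR). Ndufa2, of complex I, had 61.0 and 66.0 CPM in TKO against 22.5 and 38.4 CPM in WT. The median of these lists had the opposite sign in the lumbar cord, −0.227 for ribosomal and −0.125 for respiratory chain genes, and no member was called for a difference between segments. Mitochondrially encoded genes went the other way, all 15 below 0 with a median of −0.662, and −0.237 after GC correction. Without TKO replicate 2 and WT replicate 1 that median was 0.385, so its sign rested on those libraries.

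The known roles of the family were covered by lists of its published targets, the p53 response and motile cilia. Of 56 published targets tested, 26 were above and 30 below 0, with a median of −0.032, and 6 were higher and 4 lower at an unadjusted p under 0.05 (over all genes 11.7% and 8.23%). After GC correction the median was −0.061 and 2 passed, Csf1r as higher and Gas1 as lower. Gas1, a membrane protein of growth arrest that fibroblasts express, had 5.27 and 4.65 CPM in TKO against 8.98 and 9.63 CPM in WT (adjusted p = 0.192, and 0.0446 after GC correction, with edgeR). Genes of the p53 response had a median of −0.016 over 26, and 0.072 after GC correction, with 2 higher and 4 lower at an unadjusted p under 0.05. Phlda3, an inhibitor of Akt, had 64.7 and 69.5 CPM in TKO and 32.4 and 44.3 CPM in WT, a log2 value of 0.81 that was 0.15 after GC correction. Perp, a protein of desmosomes, had 2.33 and 2.58 CPM in TKO and 5.41 and 4.12 CPM in WT. Ependymal and motile cilia genes had a median of 0.032 over 45, and 0.121 after GC correction, with 5 higher and 0 lower at an unadjusted p under 0.05. The higher count was close to the 11.7% of all genes, and the lower count was under the 8.23%. Foxj1, the transcription factor that drives motile cilia, had 16.9 and 16.5 CPM in TKO and 6.53 and 10.8 CPM in WT (log2 0.95, and 0.32 after GC correction). Tppp3, a tubulin-binding protein, had 135 and 185 CPM in TKO against 47.9 and 84.0 CPM in WT (adjusted p = 0.199, and 0.0794 after GC correction, with edgeR).

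Matches to the seed were counted in the longest annotated 3′ UTR of each gene, on the strand of the transcript, as the 7 bases CACTGCC. Among 15005 tested genes with a UTR, 2584 (17.2%) held at least 1 match, and 901 (6.00%) held CACTGCCA, which adds an A facing the first base of the microRNA. The median log2 fold change was 0.014 with a match and −0.014 without, 0.003 with the 8-base match and 0.048 in 481 genes with 2 or more matches. After GC correction these medians were −0.007, −0.006, 0.004 and 0.003. Genes with matches have longer UTRs, with a median of 2284 bases against 1011 without a match, and fold changes also followed UTR length, from 0.203 in the group of genes with the shortest to −0.187 in the group with the longest. Within each of 4 ranges of UTR length, genes with a match still had the longer median UTR. In 16 cells formed by these ranges and 4 of UTR GC, the median with a match minus that without ran from −0.061 to 0.121 and was above 0 in 10 cells. After GC correction it ran from −0.034 to 0.054, again above 0 in 10. No test was made of these differences.

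Sites in genes described above are shown with their flanks, with the matched bases in capitals, because genes on both sides of 0 hold them. Fam107a has 3 matches and Padi2 and Igf2 have 2 each, of which the first is shown, and Igf1 has 1 in a UTR of 6308 bases.
Fam107a, site of 8 bases: agagaggaagcCACTGCCAggaaagacctc
Padi2, site of 7 bases: cgctcaacagtCACTGCCttcgagagtta
Igf1, site of 7 bases: attctaaatgtCACTGCCcaattgaaata
Igf2, site of 8 bases: taaggagatggCACTGCCAagtgatacatg
Dpp4, site of 8 bases: gaagagctgttCACTGCCAgactggcacag
Gabra3, site of 8 bases: attgagccaaaCACTGCCAtttgtccagtt
They lie at chr14:8298429-8298458 (minus strand), chr4:140951867-140951895 (plus), chr10:87936185-87936213 (plus), chr7:142652580-142652609 (minus), chr2:62332110-62332139 (minus) and chrX:72434420-72434449 (minus) on GRCm38, in GENCODE vM21 transcripts. Fam107a and Padi2 were higher in TKO, at log2 values of 1.5 and 1.23, and Igf1, Igf2, Dpp4 and Gabra3 lower, at −2.15, −1.56, −1.74 and −0.61. Gabra3, a GABA receptor subunit and a published target, had 78.8 and 76.8 CPM in TKO and 130 and 108 CPM in WT (adjusted p = 0.205 with edgeR). Masp2, Samd11, Zfp981 and Zfp982 held no match in this window. A match describes the sequence and does not show that it is used.

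The difference between the genotype effects of the thoracic and the lumbar cord was tested in the same fit. Of 17067 genes 1 was called (0.00586%), and 597 (3.5%) had an unadjusted p under 0.05. That gene, Gm42416, is a model with only a number for a name, singled out because it was the only call. It had 145 and 173 reads in TKO and 223 and 222 in WT in the thoracic cord, and 0 and 0 reads in TKO against 193 and 143 in WT in the lumbar cord. None of its reads was uniquely placed. For the 6 genes called in the thoracic cord, the unadjusted p of the difference between segments ran from 0.177 for Igf1 to 0.911 for Zfp981. Igf1 had a log2 value of −2.15 in the thoracic and −1.72 in the lumbar cord, Masp2 one of 3.93 and 3.35, and Padi2 one of 1.23 and 0.99. All 96 genes called after GC correction had the same sign in the lumbar comparison without that correction. With neither segment corrected, the sign was shared by 65.6% of all genes tested. It was shared by 2808 of the 3396 genes at an unadjusted p under 0.05 in the thoracic cord. The lumbar libraries also helped to set the spread behind the calls, so the lumbar sign is not a fully separate check. The lumbar comparison itself called 7 genes (0.041%). Whether a thoracic and a lumbar library came from the same mouse is not given in the labels.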

How the data were processed

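Each library came with 1 table of whole-number read counts per gene, deposited by the authors as total, unique, exon and intron reads, with no normalization per the file headers. The same tables hold RPKM values, computed by the authors from exon reads and exon length per the file headers. The build was mm10, per the submitters' processing notes, and no aligner, counter or strand setting is stated there or in the labels. Without a stated strand setting, overlapping and antisense genes are uncertain.

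Total gene reads of all 8 libraries were fitted with 4 group means in edgeR 4.0.16 (TMM factors, filterByExpr, robust quasi-likelihood test, Benjamini-Hochberg adjustment over 17067 genes, threshold 0.05) under R 4.3.3. CPM in the text are scaled to the total gene reads of each library times its TMM factor. At the thoracic depths 3 reads, the limit that a count of 0 allows, came to 0.153 to 0.168 CPM, and intervals and limits cover counting error only. GC correction used offsets for each library from the median deviation of log2 CPM in 20 bins of GC of the longest GENCODE vM21 transcript, known for 17056 of the 17067 genes. It was added after seeing the data. The fits were also run on counts simulated with the same dispersion for every gene. That setting leaves out spread that differs by gene, so the run does not vouch for the calls made here. Alternatives used DESeq2 1.42.0 and limma 3.58.1, with 0.5 and 0.1 added to RPKM before log2. With 2 libraries against 2, an exact two-sided permutation test of a single gene cannot go below p = 0.333, so none was used.

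Same-numbered TKO and WT libraries were compared by the correlation of their deviations from group means. It was 0.313 in the thoracic and −0.33 in the lumbar cord. Between the segments it was 0.442 for TKO replicate 1 and −0.208 for WT replicate 1. With 2 libraries a group, a trend shared across genes can set the sign, so these values cannot show or exclude pairing. The labels do not say that the numbers pair mice, so the numbers were not used as pairs. The members and lists were chosen with earlier results of these data known, and published targets come from general knowledge of the field. Genes named in the text are calls without overlap whose higher group averages at least 1 CPM, up to 15 per direction and filled to 10 by smallest p, the genes of the deleted loci and Smn1, up to 4 genes of smallest p per list, and the 5 of smallest p for the difference between segments. Gene models known only by number or clone are counted without their names. Exceptions are stated where they occur, and Mbp, Opalin, Zfp990 and other genes called only after GC correction were named after their values were seen. Figures were drawn with matplotlib 3.10.9.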

Additional observations from a re-analysis of the deposited data

Results flagged for a closer look

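The genotype effect of Gm42416 differed between the segments by the test of the difference itself. Its thoracic minus lumbar log2 value was 10.05 (SE 0.752, adjusted p = 0.0146 with edgeR), and it rests on 0 reads in both lumbar TKO libraries. With unique reads or exon reads alone no gene was called for this difference, and none of the reads of Gm42416 was uniquely placed.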

How the results depend on the processing

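The number of genes called in the thoracic cord, 6 with 4 higher and 2 lower, changed with the settings. It was 418 with DESeq2 (286 higher, 132 lower), 65 with no filter on low counts (46 and 19), 23 from the 4 thoracic libraries only (12 and 11), 987 with the mitochondrial share as covariate (619 and 368), 13 without both TKO replicate 2 libraries (3 and 10), 4 with exon reads (2 and 2) and 2 with limma on RPKM (1 and 1) under either added constant. Leaving out each library in turn gave 0 to 11 calls, 0 to 7 higher and 0 to 4 lower. A replicate block gave 11 calls (9 and 2) over 8 libraries and 4146 (2369 and 1777) over the 4 thoracic ones, where 1 residual degree of freedom remained. GC correction gave 96 (57 and 39), 65 (36 and 29) over the thoracic libraries and 156 (91 and 65) with the block. Without thoracic TKO replicate 2 and WT replicate 1 there were 0 calls (0 and 0; 697 genes at an unadjusted p under 0.05 in edgeR), and 8 (3 and 5) with GC correction. The difference between segments gave 1 call, 2 with DESeq2, 0 with unique reads, exon reads, RPKM or without those 2 libraries, 115 with the mitochondrial covariate, and 0 to 2 leaving out each library.

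Smn1, at −0.08, ranged from −0.19 to 0.05 leaving out each library in turn, and turned to 0.01 without both TKO replicate 2 libraries, 0.01 without thoracic TKO replicate 2, 0.05 without thoracic WT replicate 1, 0.13 without both of the last, and 0.11 without both after GC correction. Zfp981 turned to −0.01 and −0.02 in RPKM, which counts no intron reads, and Olig2 to −0.21, −0.21 and −0.2 in the 3 GC-corrected fits with those libraries. The cause was not tested for the other changes. The myelin, astrocyte and microglial medians kept their sign in 29 of 29 fits. With 2 libraries a group, a single gene's median SE of 0.239 limits what can be called.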

Other observations

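Schwann cell genes, markers of the glia of nerve roots, had a median log2 value of −0.15 over 16, with 4 higher and 2 lower at an unadjusted p under 0.05. That median was −0.399 after GC correction and ran from −0.835 to 0.504 over the alternatives. Choroid plexus genes had a median of −0.649 over 9, and −0.544 after GC correction. Sensory ganglion genes had a median of −0.308 over 15, and −0.316 after GC correction. Interferon-induced genes had a median of 0.028 over 20, and 0.127 after GC correction, with 0 higher and 0 lower at an unadjusted p under 0.05. Notch pathway genes had a median of 0.251 over 24, and −0.068 after GC correction. Immediate early genes, which neurons induce on firing, had a median of 0.216 over 28, and −0.063 after GC correction.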
